A study of Mus musculus with 20 samples.

Results

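The MOR28 cluster is a small group of odorant receptor genes on mouse chromosome 14, and 6 of its receptors were followed: Olfr1507, Olfr1508, Olfr1509, Olfr1510, Olfr1511 and Olfr1512. They were taken by gene symbol. Each of the 6 had a single probe set on the array, among 19505 genes with a probe set and a symbol and among 1080 odorant receptors. RefSeq lists Olfr1507 under the older names Mor28 and MOR244-1, Olfr1508 under Mor10, and Olfr1509 under Mor83 and MOR244-3, so these receptors share the family name MOR244. Olfr1510, Olfr1511 and Olfr1512 carry the family names MOR223-6, MOR223-9 and MOR223-5. In the RefSeq gene order the receptors follow each other from Olfr1507 to Olfr1512, with no measured gene of another kind between them.

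Each olfactory sensory neuron transcribes 1 receptor gene from 1 allele, and this choice depends on enhancers that act on nearby receptor genes. The H enhancer, which lies upstream of Olfr1507 on the side away from the other receptors of the cluster, was the first such element to be described. It is known to be needed for the receptors closest to it, those formerly called MOR28, MOR10 and MOR83. Olfr1507 is a classical model for receptor choice and for the convergence of axons onto glomeruli, and Olfr1509 is known as a mouse receptor for the urinary sulfur compound (methylthio)methanethiol. The receptor a neuron has chosen sets which odors can drive it, and thereby its S100a5 level, as S100a5 is transcribed according to activity.

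All cells came from the olfactory mucosa of mice of both sexes, 7 to 12 weeks old, that carry an S100a5-tauGFP reporter. Mice spent 40 h in chambers with clean air at 3.1 L/min, and from 26 h on received 10 s pulses every 20 min of either an odor, named by the sample labels as an artificial cigarette smoke odor, or filtered air as vehicle. The design text of the series names bourgeonal instead, and the sample labels were followed. The mucosa of 3 mice was pooled and sorted, which gave 4 groups of 5 samples: odor GFP+, odor GFP-, vehicle GFP+ and vehicle GFP-. GFP stands for the reporter's protein, so GFP+ cells are taken as recently active neurons. Both fractions of a pool come from the same mice, and the 10 pools come from 30 mice.

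Signals are log2 values from Affymetrix Clariom S arrays, and a difference of 1 is a 2-fold difference. On each array the 23 background control probe sets had a median of 5.14 to 6.34 and a highest value of 6.9 to 8.66. The 4 arrays of replicate 5, 1 in each group, were brighter, with gene medians of 7.03 to 7.46 against 6.06 to 6.39 on the other 16 arrays. S100a5 was higher in GFP+ than in GFP- cells in 5 of 5 odor pools and in 5 of 5 vehicle pools, and did not overlap between the fractions in either. Omp, the marker protein of mature sensory neurons, averaged 19.32 in odor GFP+ and 19.2 in odor GFP- cells, so both fractions held such neurons. The GFP- fraction also held other cells: 9 of 9 measured white blood cell genes were lower in GFP+ cells in both conditions, and the mean of this list was 6.21 to 6.51 per array in odor GFP+ and 14.55 to 14.97 in odor GFP- cells. In vehicle pools it was 6.08 to 6.81 in GFP+ and 14.97 to 15.63 in GFP- cells. The part of these cells in the results below was not tested.

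The 250 bases before the annotated start were found in the RefSeq table (GRCm38.p6) for 4 of the 6 receptors. They are shown because neighbouring receptors with such sequences differed in the sort. They run 5′ to 3′ on the gene's strand: chr14:52467462-52467711 (-) for Olfr1508, chr14:52450143-52450392 (+) for Olfr1509, chr14:52410928-52411177 (-) for Olfr1510 and chr14:52390772-52391021 (-) for Olfr1511. Capitals mark matches, on either strand, to TAATTA, a core bound by homeodomain proteins such as Lhx2, and to TATAAA, the TATA box.
Olfr1508: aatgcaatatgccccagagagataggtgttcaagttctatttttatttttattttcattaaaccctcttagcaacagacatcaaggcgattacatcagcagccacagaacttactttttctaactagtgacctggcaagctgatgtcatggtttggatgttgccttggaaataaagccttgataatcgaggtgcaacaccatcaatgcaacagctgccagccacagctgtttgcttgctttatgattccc
Olfr1509: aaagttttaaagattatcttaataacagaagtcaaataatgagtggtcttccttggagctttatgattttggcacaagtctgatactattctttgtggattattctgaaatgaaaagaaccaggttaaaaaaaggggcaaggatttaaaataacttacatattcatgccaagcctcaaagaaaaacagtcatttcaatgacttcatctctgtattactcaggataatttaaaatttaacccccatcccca
Olfr1510: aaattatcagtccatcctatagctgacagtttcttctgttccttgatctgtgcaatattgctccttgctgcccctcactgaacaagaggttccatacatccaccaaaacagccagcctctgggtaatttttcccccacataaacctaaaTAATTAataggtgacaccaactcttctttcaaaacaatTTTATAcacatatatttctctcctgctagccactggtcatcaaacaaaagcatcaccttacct
Olfr1511: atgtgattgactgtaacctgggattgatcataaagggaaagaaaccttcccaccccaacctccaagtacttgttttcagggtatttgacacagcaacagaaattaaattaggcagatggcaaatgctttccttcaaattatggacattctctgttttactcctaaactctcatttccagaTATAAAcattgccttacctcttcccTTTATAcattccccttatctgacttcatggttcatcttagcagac
Olfr1510 held 1 TAATTA and 1 TATAAA, Olfr1511 held 2 TATAAA, and Olfr1508 and Olfr1509 held neither motif. The letters CCCNNGGG, a core of the sites of Ebf factors, were in none of the 4 windows. Of 944 such windows of odorant receptors 18.1% held TAATTA, 39.4% TATAAA and 2.75% CCCNNGGG, against 4.84%, 12.4% and 11.8% of 32851 windows of all genes. The RefSeq gene of Olfr1508 spans 4741 bases. Those of Olfr1509 to Olfr1512 span 942 to 1039 bases, about the length of a receptor's coding sequence, so that their windows may lie before the coding exon and not at the start of transcription.

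The first comparison was GFP+ against GFP- cells, which asks whether the neurons that had chosen a receptor lay in the active or the inactive fraction. By the threshold on adjusted p the 6 neighbours fell into 3 sets. Olfr1507 was far lower in GFP+ cells, Olfr1509, Olfr1511 and Olfr1512 were higher in GFP+ cells, and Olfr1508 and Olfr1510 did not pass the test. Not passing did not make Olfr1510 like Olfr1508. Olfr1510 was higher in GFP+ cells in 5 of 5 odor and 4 of 5 vehicle pools, and near the threshold in vehicle pools (adjusted p = 0.0503 by limma). In odor pools 3 of the 6 rose and 1 fell (adjusted p under 0.05 by limma), where 7.89% of all 22206 gene probe sets passed, 2.07% higher and 5.82% lower. In vehicle pools it was also 3 higher and 1 lower, where 9.11% passed, 2.26% higher and 6.86% lower. Among the 1080 odorant receptors 329 were higher and 185 lower in odor pools, and 364 higher and 170 lower in vehicle pools. Centring arrays on their medians split the probe sets that passed into 807 higher and 1055 lower in odor pools, against 460 and 1292 as deposited, and into 1169 and 1211 in vehicle pools, against 501 and 1523. As arrays measure the RNA of whole fractions, fewer neurons that had chosen a receptor and less RNA of it per neuron cannot be told apart.

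**Figure D1:**
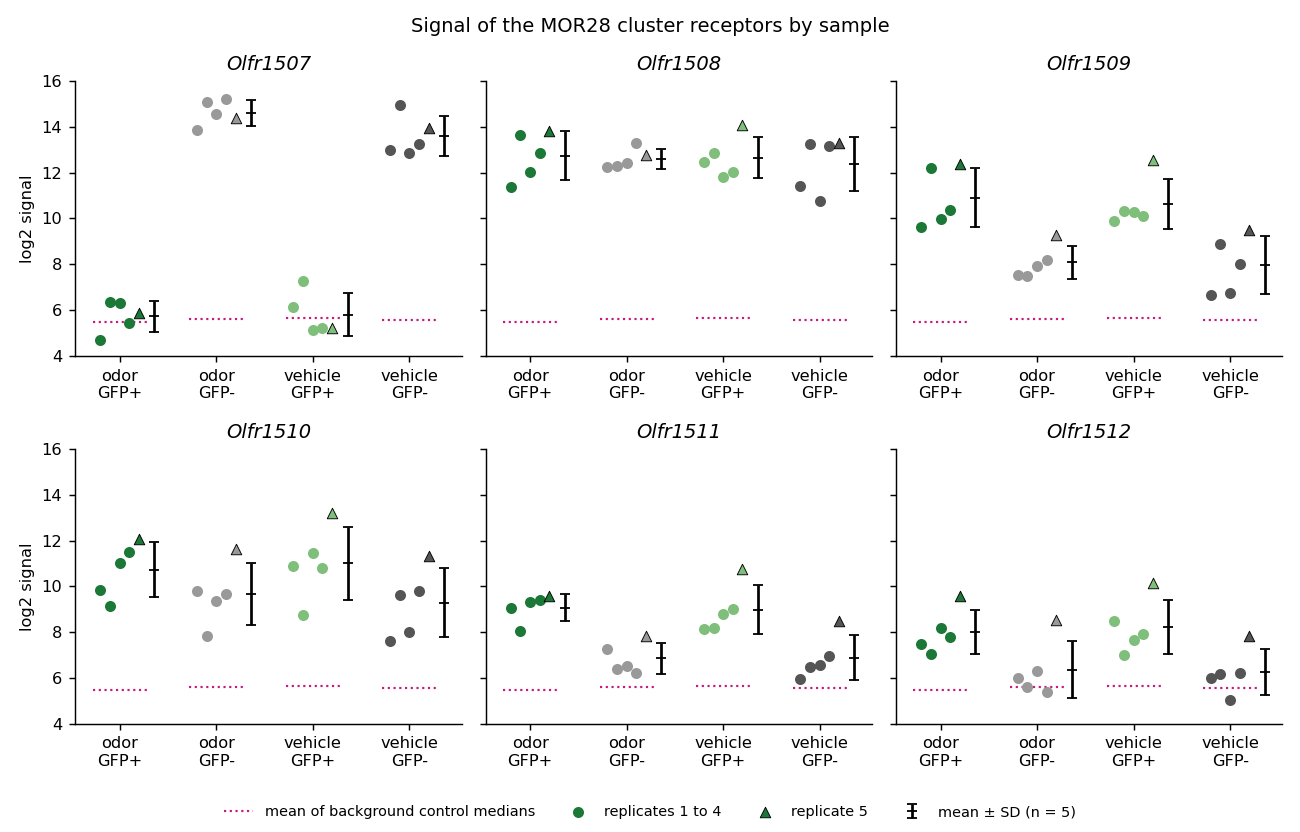
Log2 signal of each receptor (vertical axis) in every sample of the 4 groups (horizontal axis). Circles are replicates 1 to 4, triangles replicate 5, bars the mean ± SD (n = 5), and dotted lines the mean over arrays of the background control medians. Olfr1507 lies near the dotted line in both GFP+ groups and between 12.88 and 15.23 in both GFP- groups, while Olfr1508 lies between 10.76 and 14.07 in all 4.

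Olfr1507, the gene next to the H enhancer, had signals of 4.71, 6.37, 6.3, 5.42 and 5.86 in odor GFP+ cells, against 13.85, 15.09, 14.55, 15.23 and 14.37 in odor GFP- cells (replicates 1 to 5). In vehicle pools its signals were 6.13, 7.29, 5.14, 5.21 and 5.24 in GFP+ cells, against 12.98, 14.97, 12.88, 13.27 and 13.97 in GFP- cells. The fractions did not overlap in either condition, and every GFP- value was at least 5 log2 units above every GFP+ value. The log2 change was -8.89 in odor pools (SE 0.28, 95% confidence interval -9.49 to -8.28, adjusted p = 7.2e-10 by limma) and -7.81 in vehicle pools (SE 0.28, -8.42 to -7.21, adjusted p = 1.08e-09 by limma). In GFP+ cells Olfr1507 was not above all background controls of its array on any of the 5 odor arrays and was above them on 1 of 5 vehicle arrays, replicate 2. On all other GFP+ arrays its level was thus not told from background, so the fitted changes depend on background signals and are not measured folds. With GFP+ values raised to at least the highest background control of their array, Olfr1507 was at least 181-fold lower in GFP+ cells of odor pools. In vehicle pools, where 1 GFP+ array measured it, the same floor gave 86.2-fold.

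No other odorant receptor of the 1080 had a change as negative in either condition. The nearest was Olfr1297, at -7.99 in odor and -7.71 in vehicle pools, where Olfr1507 was at -8.89 and -7.81. As Olfr1507 was not told from background on most GFP+ arrays, this order was not measured well.

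Olfr1508, the next gene and of the same MOR244 family, showed nothing of this kind. It had 11.36, 13.66, 12.01, 12.84 and 13.83 in odor GFP+ cells, against 12.26, 12.27, 12.44, 13.31 and 12.75 in odor GFP- cells. The vehicle pools had 12.47, 12.85, 11.82, 12.01 and 14.07 in GFP+ cells, against 11.42, 13.25, 10.76, 13.16 and 13.28 in GFP- cells. The fractions overlapped in both conditions, on signals above all background controls of all 20 arrays. GFP+ was the higher fraction in 2 of 5 odor pools and in 3 of 5 vehicle pools. The log2 change was 0.13 in odor pools (95% confidence interval -0.71 to 0.98, adjusted p = 0.944 by limma) and 0.27 in vehicle pools (-0.57 to 1.12, adjusted p = 0.813 by limma), and over 19 alternatives the estimate ran from -0.18 to 0.39 in odor and from 0.08 to 0.63 in vehicle pools.

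Olfr1509, the third of the MOR244 receptors and the one known to respond to the urinary sulfur compound, went the other way from Olfr1507. It had 9.62, 12.19, 9.97, 10.37 and 12.38 in odor GFP+ cells, against 7.55, 7.5, 7.94, 8.2 and 9.28 in odor GFP- cells. Its vehicle signals were 9.87, 10.33, 10.29, 10.09 and 12.54 in GFP+ cells, against 6.65, 8.88, 6.75, 8.02 and 9.51 in GFP- cells. The fractions did not overlap in odor pools or in vehicle pools, and each pool was higher in GFP+ cells. It rose by 2.81 on the log2 scale in odor pools (7.03-fold, SE 0.39, adjusted p = 0.000298 by limma) and by 2.66 in vehicle pools (6.33-fold, SE 0.39, adjusted p = 0.000394 by limma). Its GFP- values were above all background controls on 5 of 5 odor arrays and on 3 of 5 vehicle arrays, and with the others raised to the highest control the vehicle fold was 5.06.

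**Figure D2:**
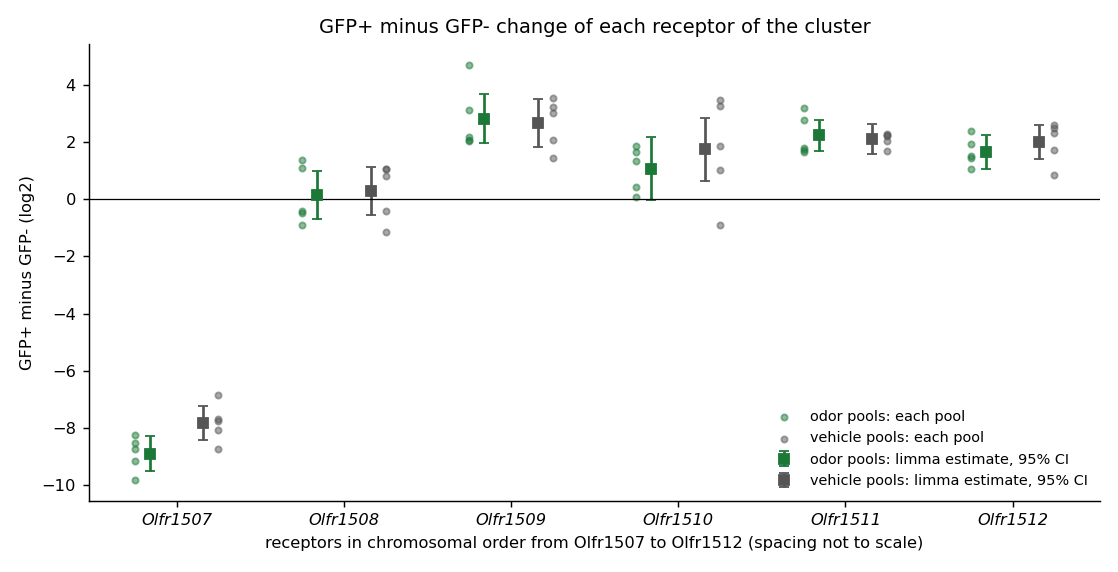
GFP+ minus GFP- change on the log2 scale (vertical axis) of the 6 receptors in their chromosomal order (horizontal axis), as limma estimates with 95% confidence intervals (squares) and as single pools (small circles), odor pools left of vehicle pools. Olfr1507 lies at -8.89 and -7.81, Olfr1508 around 0, and the remaining 4 estimates of each condition lie between 1.06 and 2.81.

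The 3 receptors of the MOR223 family, which share this name with receptors outside the cluster, all had estimates above 0 in the sort. Olfr1511 had 9.04, 8.06, 9.3, 9.41 and 9.56 in odor GFP+ cells, against 7.25, 6.41, 6.53, 6.23 and 7.85 in odor GFP- cells. In vehicle pools it had 8.16, 8.19, 8.8, 9 and 10.77 in GFP+ cells, against 5.95, 6.5, 6.55, 6.97 and 8.49 in GFP- cells. The fractions did not overlap in odor pools. In vehicle pools the GFP- sample of replicate 5 reached above 2 GFP+ samples, although each pool by itself was higher in GFP+ cells. Olfr1511 rose by 2.22 in odor pools (4.66-fold, SE 0.25, adjusted p = 4.69e-05 by limma) and by 2.09 in vehicle pools (4.26-fold, SE 0.25, adjusted p = 6.88e-05 by limma).

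Olfr1512, at the far end of the cluster from the H enhancer, lay close to the background controls in GFP- cells and above them in GFP+ cells. It had 7.5, 7.04, 8.2, 7.77 and 9.56 in odor GFP+ cells, against 5.99, 5.62, 6.29, 5.39 and 8.52 in odor GFP- cells. The vehicle signals were 8.47, 7.01, 7.65, 7.94 and 10.13 in GFP+ cells, against 5.99, 6.18, 5.05, 6.24 and 7.84 in GFP- cells. The fractions overlapped only through the bright GFP- arrays of replicate 5, and each of the 10 pools was higher in GFP+ cells. It rose by 1.65 in odor pools (3.15-fold, SE 0.27, adjusted p = 0.00125 by limma) and by 1.98 in vehicle pools (3.95-fold, SE 0.27, adjusted p = 0.000253 by limma). Without regard to pools, with the 20 samples fitted as 4 groups, these calls ended (adjusted p = 0.276 and 0.1 by limma), while over all alternatives the adjusted p ran from 1.06e-05 to 0.276 in odor and from 3.99e-05 to 0.1 in vehicle pools. In GFP- cells Olfr1512 was above all background controls on 0 of 5 odor arrays and on 1 of 5 vehicle arrays. Olfr1511 was above them on 0 of 5 odor and 1 of 5 vehicle GFP- arrays, so both fitted changes depend on background signals. With GFP- values raised to the highest background control of their array, Olfr1511 was at least 3.23-fold and Olfr1512 at least 1.55-fold higher in GFP+ cells of odor pools. In vehicle pools, where 1 GFP- array measured each of them, the same floor gave 2.33-fold and 1.53-fold.

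Olfr1510 had the largest SE of the 6 receptors. It had 9.86, 9.16, 11.03, 11.52 and 12.05 in odor GFP+ cells, against 9.8, 7.83, 9.38, 9.68 and 11.63 in odor GFP- cells. In vehicle pools it had 10.87, 8.74, 11.46, 10.81 and 13.2 in GFP+ cells, against 7.62, 9.63, 7.99, 9.8 and 11.34 in GFP- cells. The fractions overlapped in both conditions, and 9 of the 10 pools were higher in GFP+ cells. The exception was vehicle pool 2, with a difference of -0.89 where the other vehicle pools had 1.01 to 3.47. The log2 change was 1.06 in odor pools (SE 0.51, adjusted p = 0.338 by limma) and 1.74 in vehicle pools (SE 0.51, adjusted p = 0.0503 by limma). Without vehicle pool 2 the vehicle estimate was 2.4 and passed (adjusted p = 0.00154 by limma). Over the 19 alternatives of the vehicle sort its adjusted p ran from 0.00154 to 0.451 and passed in 6, quantile normalization and centring on array medians among them. In odor pools it passed in 1 of 19, with array weights (adjusted p = 0.0203 by limma).

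Counted over the cluster, the fractions did not overlap for 3 of 6 receptors in odor pools, where 5.07% of all probe sets had no overlap, and for 2 of 6 in vehicle pools, where 4.74% had none. The median log2 change of the 6 was 1.36 in odor pools and 1.86 in vehicle pools. Over all 1080 odorant receptors it was 0.43 and 0.51, and over all probe sets 0.08 and 0.09. Olfr1509 lay above 92.8% of all odorant receptors in odor pools and above 91% in vehicle pools, and Olfr1508 above 41.7% and 42.2%. These ranks describe probe sets of unequal range and were not tested.

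**Figure D3:**
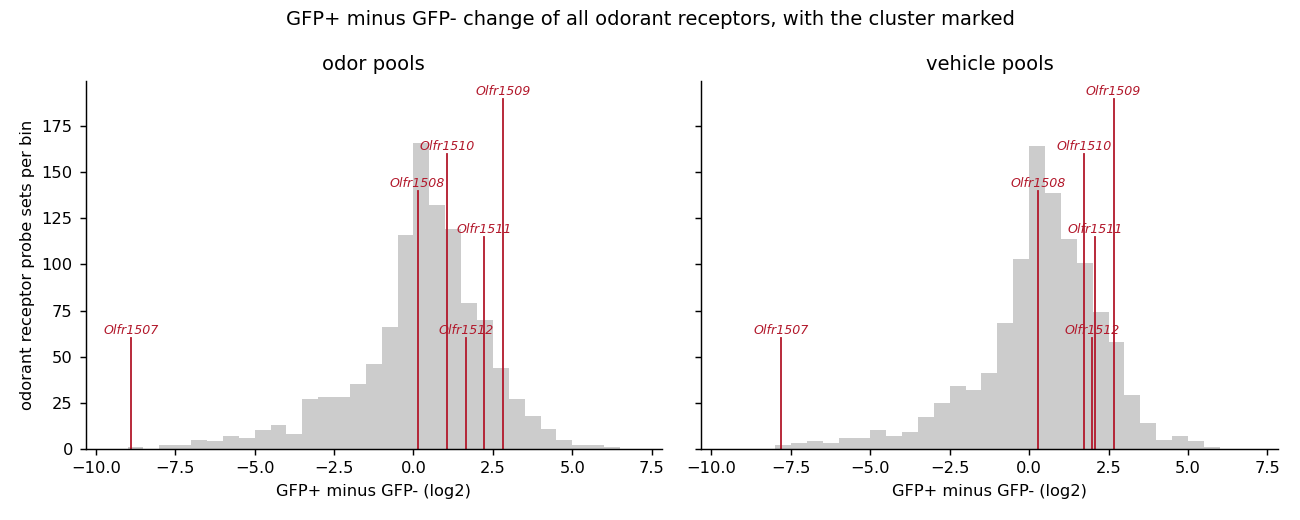
Number of odorant receptor probe sets (vertical axis) by GFP+ minus GFP- log2 change (horizontal axis, bins of 0.5) in odor pools (left) and vehicle pools (right). Red lines mark the 6 receptors, with heights chosen only to separate the names. Olfr1507 lies at the lower end of the 1080 receptors in both panels, and Olfr1508 lies near the median of 0.43 and 0.51.

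Whether neighbours differed from each other was tested on the 10 pools of both conditions, as the difference between the GFP+ minus GFP- changes of a pair of receptors in the same pool. Of the 15 pairs 11 differed (exact two-sided permutation test with signs flipped over pools, adjusted by Benjamini-Hochberg over the 15 pairs, in which 0.00195 is the smallest unadjusted p possible). Olfr1507 was below each of the other 5 receptors in 10 of 10 pools, with a difference of -8.55 ± 1.08 from Olfr1508 and of -11.09 ± 1.22 from Olfr1509 (SD, n = 10 pools, exact p = 0.00195, adjusted p = 0.00419 each). Olfr1508 was below Olfr1509 in 10 of 10 pools, with a difference of -2.53 ± 0.5 (SD, n = 10, exact p = 0.00195, adjusted p = 0.00419). It was also below Olfr1511, Olfr1512 and Olfr1510, with adjusted exact p-values of 0.00419, 0.00879 and 0.032, the last in 7 of 10 pools. Olfr1509 was above Olfr1510 by 1.34 (adjusted exact p = 0.00732) and above Olfr1512 by 0.92 (adjusted exact p = 0.00879), in 9 of 10 pools each. The pairs that did not pass were Olfr1509 with Olfr1511 (0.58 ± 1.19, SD, n = 10, adjusted exact p = 0.145) and the 3 pairs within the MOR223 family. Among these, Olfr1510 minus Olfr1511 was -0.75, Olfr1510 minus Olfr1512 was -0.42 and Olfr1511 minus Olfr1512 was 0.34, with adjusted exact p-values of 0.0811, 0.145 and 0.0708. The changes of Olfr1507, Olfr1511 and Olfr1512 depend on background signals in their dimmer fraction, so the sizes of differences with them were not measured well. Olfr1511 and Olfr1512 were above all background controls on 0 of 5 odor and 1 of 5 vehicle GFP- arrays. Their rises may be understated, so whether Olfr1509 rose more than Olfr1512 or Olfr1511 was not settled. Differences between probe sets also contain how strongly each follows its transcript.

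The MOR244 name was borne only by Olfr1507, Olfr1508 and Olfr1509 among the measured receptors, so within 1 family 1 receptor fell, 1 rose and 1 did not pass. The MOR223 name was borne by 6 further measured receptors, Olfr1513 next to Olfr1512 and Olfr978 to Olfr982 on chromosome 9. Of these 5 rose in odor pools and 6 in vehicle pools, and none fell. Olfr981 was at 4.48 in odor and 4.71 in vehicle pools, with GFP- means of 5.52 and 5.15 near background. The other chromosome 9 receptors lay between 0.96 and 1.37 in odor pools, where Olfr980, at 0.96, did not pass but did under both other scalings, and between 1.1 and 1.41 in vehicle pools, where 5 of the 6 passed under quantile normalization. Family names stand for related sequences, so cross-hybridisation between relatives cannot in general be told apart from their own signal with the data used here. In odor GFP+ cells Olfr1508 averaged 12.74 and Olfr1507 5.73, and in odor GFP- cells 12.61 and 14.62. Whether Olfr1507 RNA adds to the Olfr1508 signal in GFP- cells was not tested.

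The divide within the cluster was then set beside the rest of the chromosome. Olfr1513, named here for its place beside Olfr1512, rose by 1.17 in odor pools (adjusted p = 0.0397 by limma) and by 1.89 in vehicle pools (adjusted p = 0.00127 by limma). Of the 33 measured odorant receptors of chromosome 14 outside the 6, 18 rose and 4 fell in odor pools with a median of 1.82, and 17 rose and 2 fell in vehicle pools with a median of 1.44. Olfr745 (4.15), Olfr741 (4.05) and Olfr726 (3.61) rose most in odor pools. Olfr728 (-6.61), Olfr750 (-3.32) and Olfr736 (-2.67) had the most negative fitted changes in odor pools. In odor GFP+ cells Olfr728 and Olfr750 were above all background controls on 0 of 5 arrays and Olfr736 on 1 of 5, so the order among them was not measured well. With the floor used for Olfr1507, Olfr728 was at least 19.9-fold lower in GFP+ cells of odor pools, and Olfr750 at least 3-fold lower. In vehicle pools the same floor gave 16.8-fold and 1.7-fold, and Olfr750 did not pass there (-1.83, adjusted p = 0.11 by limma). For Olfr736 the floor gave 3.99-fold in odor and 4.68-fold in vehicle pools. Olfr728 stands between Olfr727, which rose by 2.6, and Olfr729, which rose by 2.47. Its nearest measured neighbours thus passed in the other direction, while those of Olfr1507, which are Olfr1508 and Olfr49 (-0.76 in odor and -0.37 in vehicle pools), did not pass. Of the 5 nearest measured genes of other kinds on each side none passed in odor pools: Chd8, Rab2b, Tox4, Mettl3 and Sall2 lay between 0.04 and 1.06, and Dad1, Abhd4, Oxa1l, Slc7a7 and Mrpl52 between -0.44 and 0.72. In vehicle pools Slc7a7, an amino acid transporter subunit, was the only one of the 10 to pass (-0.89, adjusted p = 0.0474 by limma), with a mean of 4.52 in GFP+ and 5.4 in GFP- cells that lay near background. Under quantile normalization and under centring on array medians 0 of the 10 passed.

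**Figure D4:**
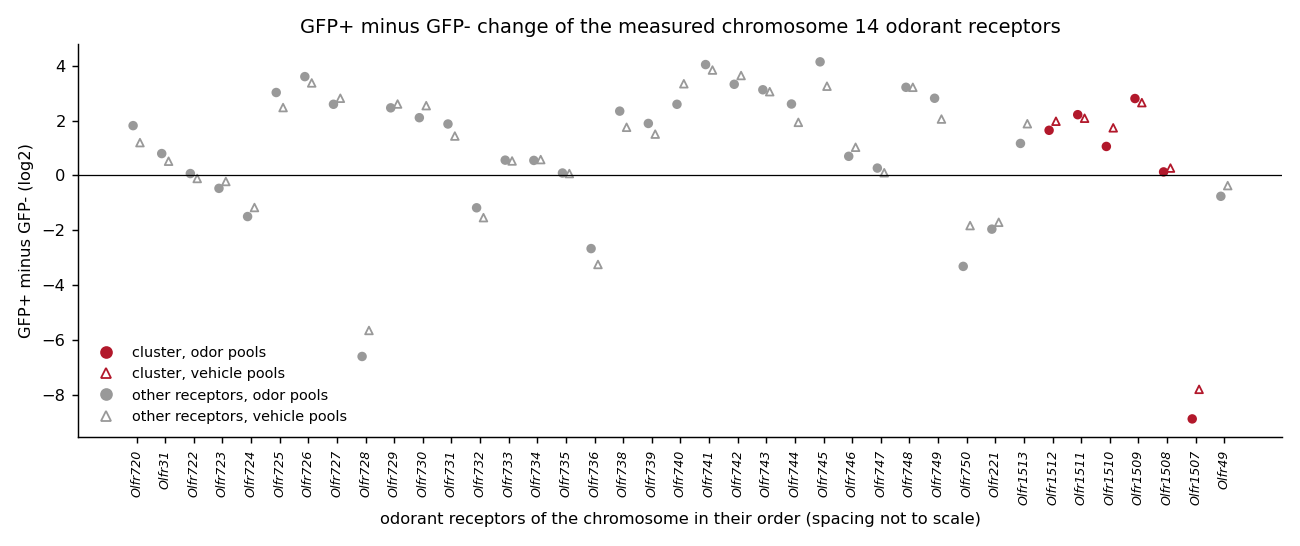
GFP+ minus GFP- log2 change (vertical axis) of the measured odorant receptors of chromosome 14 in their RefSeq order (horizontal axis, not to scale), with circles for odor pools and triangles for vehicle pools. The 6 receptors of the cluster are red. Olfr1507 lies at -8.89 and -7.81 beside Olfr1508 at 0.13 and 0.27, and Olfr728 at -6.61 and -5.66 lies among receptors with positive changes.

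Genes known to act in receptor choice were set beside the cluster in the same comparison. Of 21 measured genes, among them the H enhancer factors Lhx2, Ldb1 and Ebf1, 0 rose and 1 fell in each condition. That gene was Lbr, the lamin B receptor of the nuclear envelope (-1.94 in odor pools, adjusted p = 4.17e-05, and -2.18 in vehicle pools, adjusted p = 1.32e-05, by limma). Rtp2, which helps receptors to the cell surface, was at 0.85 and 0.87, the adenylyl cyclase Adcy3 at 0.6 and 0.54 and the zinc finger protein Tshz1 at -0.48 and -0.13 in odor and vehicle pools, and these did not pass. Of 9 genes that mark dorsal or ventral zones of the epithelium, 0 passed in either condition. The estimates in odor pools were -0.55 for Robo2, 0.48 for Nrp2, 0.38 for Nqo1, a dorsal marker, and -0.34 for Nfia. Of 12 mature neuron genes 0 passed in either condition, although up to 2 rose under other scalings, while 6 of 8 immature neuron genes and 3 of 4 progenitor genes fell in both. The progenitor genes that fell were Mki67, Kit and Top2a, while Neurog1 (-0.49 in odor and -0.66 in vehicle pools) did not pass. Of the immature neuron genes Dcx (-0.02 and 0.47) and Tubb3 (0.43 and 0.41) did not pass. The part of white blood cells in these counts was not tested. In odor pools Cxcr4, a chemokine receptor also present on white blood cells, was at -5.17, Gng8 at -3.87, Dpysl3 at -3.78 and Gap43 at -2.59. Of 3 microvillar cell genes 3 fell, and of 3 horizontal basal cell genes 0 passed. Of 5 sustentacular cell genes 0 passed in odor and 2 fell in vehicle pools (1 after centring), and of 4 endothelial and glial genes 1 and 2 fell, a call that 0 of the 4 kept under either other scaling.

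Among activity genes of sensory neurons, 4 of 8 rose in odor and 5 of 8 in vehicle pools, with 0 lower. S100a5 is among them, and as its reporter defined the sort, its rise is not an independent result. The list was also chosen with earlier results of these data known. Centring on array medians gave 5 and 6, and quantile normalization 4 in each. In odor pools S100a5 was at 2.15, the neuronal genes Lrrc3b and Pcp4l1 at 1.92 and 1.79, and the adhesion protein Pcdh10 at 1.62, which did not pass (adjusted p = 0.0682 by limma). Of 9 genes of glomerular sorting 0 passed in odor and 2 rose in vehicle pools, Sema7a (1.83, adjusted p = 0.0481) and the ephrin receptor Epha5 (0.94, adjusted p = 0.0193, by limma). Centring on array medians gave 1 in odor and 3 in vehicle pools, and quantile normalization 0 and 1. Kirrel2, an adhesion protein whose level follows activity, was at 1.43 and 1.57 and did not pass. Pcdh10, Kirrel2 and Sema7a stood on both lists, so the counts of the activity and glomerular sorting genes are not independent.

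The genes whose signals were most like Olfr1507 over the 20 arrays were the chemokine Ccl9 (Pearson r = 0.982), the surface protein Ly6c1 (0.981), the odorant receptor Olfr1178 (0.978), the myeloid transcription factor Spi1 (0.978) and Cybb, a subunit of the phagocyte oxidase (0.974). These follow the sort, as each was lower in GFP+ cells in both conditions (log2 changes from -4.27 to -8.14 in odor pools). With the group means taken away, the most like were Olfr1256 (0.724), Olfr727 (0.722), Papolb (0.677), Olfr2 (0.675) and Olfr1220 (0.662). Of those only Olfr727 and Olfr1220 passed in the sort, both higher in GFP+ cells. The highest of 19572 correlations is high by selection, and these values are a description.

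The second comparison was odor against vehicle, which asks whether the smoke odor changed the signals of these receptors or their GFP+ enrichment. Odor and vehicle values overlapped for all 6 receptors in both fractions, where 0.104% of all probe sets had no overlap in GFP+ and 0.0901% in GFP- cells. None of the 6 receptors passed the test in GFP+ cells, in GFP- cells or for the change between fractions, and 0% of all probe sets passed in each. At an unadjusted p under 0.05 there were 0 of the 6 in GFP+ cells, where 0.275% of all probe sets reached it, 1 of 6 in GFP- cells (0.135%) and 1 of 6 for the change between fractions (1.21%). In both cases with such a count it was Olfr1507 that reached it. Its GFP- cells had a mean of 14.62 ± 0.56 in odor and 13.61 ± 0.87 in vehicle pools (SD, n = 5 each), a log2 change of 1.01 (95% confidence interval 0.04 to 1.97, unadjusted p = 0.0428, adjusted p = 1, by limma). The highest vehicle value, 14.97, lay above 3 of the 5 odor values, so the groups overlapped. The difference between its sort changes was -1.08 (95% confidence interval -1.93 to -0.22, unadjusted p = 0.0174, adjusted p = 1, by limma). As Olfr1507 was not told from background on most GFP+ arrays, this difference is not independent of the one in GFP- cells. Over 19 alternatives it ran from -1.4 to -0.69 with adjusted p-values from 0.943 to 1. In these comparisons the shares of all probe sets at an unadjusted p under 0.05 lay below the 5% that chance gives. The absence of calls therefore does not show that the odor had no effect.

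For the other 5 receptors the odor minus vehicle changes lay between -0.29 and 0.28 in GFP+ cells and between -0.04 and 0.39 in GFP- cells. For Olfr1509 in GFP+ cells the change was 0.28 (95% confidence interval -1.13 to 1.7), and for Olfr1510 it was -0.29 (-1.95 to 1.36). Olfr1511 in GFP+ cells was at 0.09 (-0.98 to 1.16) and Olfr1508 at 0.1 (-1.09 to 1.29). These intervals are from the fit without pairing. The labels do not say that replicate numbers pair odor and vehicle samples. As an alternative, the fit with the replicate block was set beside the fit without pairing. Its intervals were narrower, from -0.35 to 0.92 for Olfr1509, from -0.9 to 0.31 for Olfr1510, from -0.5 to 0.68 for Olfr1511 and from -0.5 to 0.69 for Olfr1508. None of the 6 receptors passed there either (adjusted p = 0.993 to 0.996 by limma). For the sort change, Olfr1511 had the narrowest interval, with an odor minus vehicle difference of 0.13 (-0.62 to 0.89). For Olfr1508, Olfr1509, Olfr1510 and Olfr1512 these differences were -0.14, 0.15, -0.68 and -0.33. Those of Olfr1511 and Olfr1512 depend on background signals, with GFP- values above all background controls on 0 of 5 odor and 1 of 5 vehicle arrays. A narrow interval there is not a precise measure of the transcript.

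**Figure D5:**
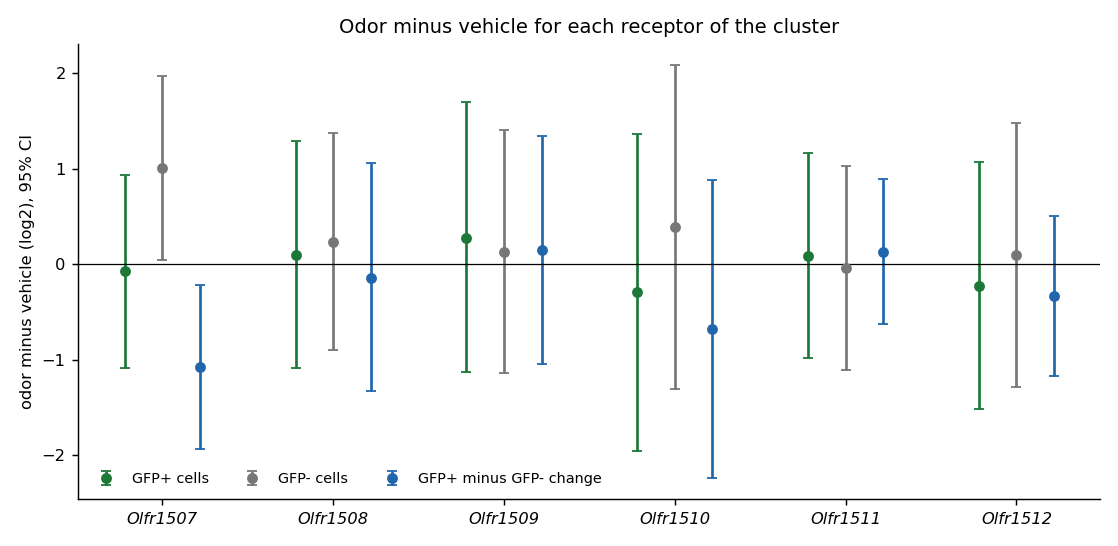
Odor minus vehicle on the log2 scale (vertical axis) for each receptor (horizontal axis) in GFP+ cells (green), in GFP- cells (grey) and for the GFP+ minus GFP- change (blue), with limma estimates as points and 95% confidence intervals as bars. The intervals include 0 except for Olfr1507 in GFP- cells (0.04 to 1.97) and for its change between fractions (-1.93 to -0.22), which did not pass after adjustment.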

How the data were processed

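Log2 signals per probe set were used as deposited by the authors. Affymetrix Expression Console made them, per the submitters' processing notes, with a version and a normalization not given in the sources used here. Of 28846 rows, 6640 control rows were left out and 22206 gene probe sets tested with no filter on dim ones, of which 19572 had 1 symbol. Names, older names and gene order came from RefSeq (GRCm38.p6), promoter windows from its sequence table.

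Limma 3.58.1 in R 4.3.3 (lmFit, eBayes) was fitted over all gene probe sets, with Benjamini-Hochberg adjustment over all of them at 0.05. GFP+ minus GFP- differences within the 10 pools entered 1 fit. Odor and vehicle were compared in each fraction on 10 samples. P-values measure the spread between pools, and the number of arrays limits the precision. In the odor against vehicle fits within a fraction this spread includes the brightness of the replicate 5 arrays. At most 0.00901% of values were identical between 2 arrays. The code was tested on simulated data.

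The receptors and gene lists were chosen with earlier results of these data known. Genes named beside the 6 receptors were the 3 receptors of the chromosome that changed most in each direction, 5 neighbours a side, 5 most like Olfr1507, and up to 4 of each list by size in odor pools. Lhx2, Ldb1 and Ebf1 were named as known factors of the H enhancer, whatever their size of change. Olfr1513, Olfr1297, Olfr727, Olfr729, Olfr49, the MOR223 receptors, Dcx and Tubb3 were named after their values were seen. Deviations of same-numbered odor and vehicle samples correlated at 0.157 to 0.862 in GFP+ cells, all above the limit of 0.1 for pairing, at -0.378 to 0.842 in GFP- cells and at -0.481 to 0.208 for pool differences. The deviations were taken from means over all 5 replicates, so the bright arrays of replicate 5 entered each of them in both conditions. The correlations therefore do not show that the numbers pair samples, and the replicate block was kept as an alternative. Alternatives were 2 other scalings (quantile and array medians), a filter on the dimmest 25% of probe sets, a variance trend, array weights, a replicate 5 term, fewer pools, and fits with or without blocks.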

Additional observations from a re-analysis of the deposited data

Results flagged for a closer look

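Of 36 sets of 5 values of the 6 receptors (4 groups and 2 sets of pool differences each), 2 had a sample that stood apart from the rest by Dixon's test, and chance gives about 1 in 20. Olfr1509 was at 12.54 in vehicle GFP+ replicate 5, where the other 4 samples lay between 9.87 and 10.33. Olfr1512 was at 8.52 in odor GFP- replicate 5, where the others lay between 5.39 and 6.29. Both belong to the 4 bright arrays of replicate 5. The GFP+ minus GFP- differences of these pools, 3.02 for Olfr1509 and 1.04 for Olfr1512, did not stand apart.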

How the results depend on the processing

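Of 570 estimates of single receptors under alternatives, 561 kept their side of the threshold, 2 lost it, 7 gained it, and no called change turned its direction. All losses and gains were in the sorts. In the odor against vehicle comparisons at most 1 of 22206 probe sets passed under any alternative, so the side was nearly fixed there. Several settings, such as the variance trend and the dim filter, also left the fitted sort changes as they were. Olfr1507, Olfr1509 and Olfr1511 passed in both sorts under all 19 alternatives, Olfr1507 with changes from -9.05 to -8.66 in odor and from -8.22 to -7.57 in vehicle pools. The 2 losses were of Olfr1512 without regard to pools (no replicate block), where 3 receptors passed in each condition, and the 7 gains were of Olfr1510. Leaving out single pools left 4 receptors called in the odor sort and 4 or 5 in the vehicle sort. Centring arrays on their medians put the median change of all probe sets at 0.29 in the odor sort and 0.33 in the vehicle sort, against 0.08 and 0.09 as deposited, and Olfr1509, Olfr1511 and Olfr1512 stayed above it. Of the 15 pairs of receptors 10 to 13 differed under the alternatives. For odor against vehicle 0 receptors passed in GFP+ cells, in GFP- cells and for the change between fractions under every alternative, with the replicate block as well. The files hold no detection calls, so levels near the background controls are uncertain.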

Other observations

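In GFP+ cells replicate 2 differed from replicates 1, 3 and 4 in opposite ways between receptors, a pattern noticed in the values and not tested. Among odor replicates 1 to 4, the second had the highest signals of Olfr1508 (13.66) and Olfr1509 (12.19) and the lowest of Olfr1510 (9.16), Olfr1511 (8.06) and Olfr1512 (7.04). Among vehicle replicates 1 to 4, the second again had the highest signal of Olfr1508 (12.85) and the lowest of Olfr1510 (8.74) and Olfr1512 (7.01). For Olfr1509 it was barely the highest, at 10.33 beside 10.29 in replicate 3. Olfr1511 was at 8.19 beside 8.16 in replicate 1. Olfr1507 was not above all background controls on 4 of the 5 vehicle GFP+ arrays and on any odor GFP+ array, so its order was not read. The odor and vehicle pools hold different mice.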
